A study of Mus musculus with 4 samples.

Results

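Spots rich in smooth muscle transcripts were examined in the lungs of mice bearing 4T1 mammary tumours. They were chosen by measured values. In each lung section, spots with more than 200 detected genes were ranked by the share of their UMIs (unique molecular identifiers, counts of single captured molecules) that came from Acta2, Myh11, Tagln, Cnn1, Des and Actg2, and the top 5% were kept unless they were also in the top 5% by the summed share of the heart genes Myh6, Myl7, Tnnt2 and Nppa. This left 61 of 1697 spots from mouse A (lung A) and 102 of 2780 from mouse B (lung B), in all 163 of 4477 lung spots and of 9339 spots in the series. The heart muscle condition removed 24 of 85 spots in lung A and 37 of 139 in lung B. They were compared with the lower 80% of spots by the same ranking, 1357 in lung A and 2224 in lung B, referred to as comparison spots.

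Both mice were BALB/c animals, named A and B here, that received 100000 cells of the murine mammary carcinoma line 4T1 in the mammary fat pad at 8 weeks of age and were sacrificed 28 days later. One lung section and one primary tumour section of each mouse were profiled with Visium for FFPE tissue, in which probe pairs hybridised to fixed RNA are captured on an array of barcoded spots. A spot is a small round area whose RNA may come from a mixture of cell types, so every value belongs to an area and not to a cell. No lung of a mouse without a tumour was analysed here, and with 1 lung section per mouse each p-value rests on 2 mice. The lung sections held 11122812 UMIs in lung A and 30240176 UMIs in lung B. The members held 421361 and 770496 of them, with a median of 6934 UMIs per spot in lung A and 6949.5 in lung B, against 6537 and 9596 in comparison spots.

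Smooth muscle of the lung lies in the walls of bronchi and bronchioles, in pulmonary arteries and veins, and in small bundles at the openings of alveolar ducts. Its contraction runs through calcium, calmodulin and myosin light chain kinase, which phosphorylates the regulatory light chain of smooth muscle myosin. The contractile genes are controlled by serum response factor with its cofactor myocardin, which acts at CArG boxes in their promoters. In mice, heart muscle cells extend from the left atrium along the pulmonary veins into the lung.

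Of the 6 ranking genes, Acta2 (smooth muscle alpha actin) lies at chr19:34240336-34255585, Myh11 (smooth muscle myosin heavy chain) at chr16:14194527-14292188, Tagln (transgelin) at chr9:45929628-45936058, Cnn1 (calponin) at chr9:22099221-22109221, Des (desmin, the muscle intermediate filament) at chr1:75360292-75368579 and Actg2 (smooth muscle gamma actin) at chr6:83512909-83536251, all in GRCm38.p6. RefSeq windows of 300 bases, from 250 before to 50 after the start of transcription in GRCm38.p6, were found for 3 of the 6 genes (Acta2, Cnn1 and Des) and are shown because these genes defined the spots. Capitals mark, on either strand, CANNTG (the E box), TATATA, and CArG boxes in which up to 1 inner base differs from A or T.
Acta2, chr19:34255324-34255623, minus strand: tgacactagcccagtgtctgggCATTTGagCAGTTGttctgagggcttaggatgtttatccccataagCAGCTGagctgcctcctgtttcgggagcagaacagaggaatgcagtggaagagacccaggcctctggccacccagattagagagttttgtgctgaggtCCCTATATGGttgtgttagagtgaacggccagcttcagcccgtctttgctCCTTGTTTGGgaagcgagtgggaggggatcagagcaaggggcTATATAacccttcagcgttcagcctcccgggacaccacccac
Cnn1, chr9:22099003-22099302, plus strand: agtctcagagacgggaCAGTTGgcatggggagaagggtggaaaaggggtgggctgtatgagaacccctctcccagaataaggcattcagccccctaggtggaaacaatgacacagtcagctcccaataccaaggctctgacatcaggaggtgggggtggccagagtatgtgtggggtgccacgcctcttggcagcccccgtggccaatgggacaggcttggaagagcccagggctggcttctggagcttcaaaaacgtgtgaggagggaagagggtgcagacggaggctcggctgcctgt
Des, chr1:75360042-75360341, plus strand: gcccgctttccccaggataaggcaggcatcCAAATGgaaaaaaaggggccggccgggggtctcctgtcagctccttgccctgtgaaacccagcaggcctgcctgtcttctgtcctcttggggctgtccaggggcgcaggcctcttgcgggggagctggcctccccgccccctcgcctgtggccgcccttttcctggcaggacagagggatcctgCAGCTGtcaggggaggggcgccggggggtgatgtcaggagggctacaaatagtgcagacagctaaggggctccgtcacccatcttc
The Acta2 window held 2 of these relaxed CArG boxes, at bases 167 to 176 and 217 to 226 counted from its 5′ end, and TATATA at bases 259 to 264, with no overlap between the motifs. The windows of Cnn1 and Des held neither, and none of the 3 windows held TATAAA or a CArG box whose 6 inner bases were all A or T. The strict CArG box was found in 1.63% of 32851 promoter windows, the relaxed one in 9.98%, TATAAA in 13.6%, TATATA in 5.67% and the E box, of which Acta2 held 3, Cnn1 1 and Des 2, in 72.3%.

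The levels of the 6 genes describe the choice of spots and were not tested. A median member held 0.305% of its UMIs from these genes in lung A and 0.250% in lung B, against 0.0155% in comparison spots of either mouse. The last spot inside the threshold had 0.2159% and the first outside 0.2140% in lung A, and 0.1444% and 0.1439% in lung B. Levels are given in CPM, the UMIs of a gene or list per 1000000 UMIs of its class of spots. Acta2 stood at 959 CPM in the members and 39.9 in comparison spots of lung A, and at 539 and 31.7 in lung B. Tagln stood at 1142 against 69.1 in lung A and at 1115 against 85.9 in lung B, and it was found in all 102 members of lung B and in 60 of the 61 of lung A. Des stood at 581 against 56.4 in lung A and 670 against 45.9 in lung B. All 3 were thus far above the comparison spots in both sections.

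Myh11, Cnn1 and Actg2 were sparser in the comparison spots. Myh11 stood at 422 against 17.8 in lung A and 318 against 6.15 in lung B. Cnn1 stood at 290 against 7.36 in lung A and 262 against 4.01 in lung B, and Actg2 at 266 against 9.51 and at 318 against 6.79. Each gene was also read in spots ranked on the other 5 genes alone, so that it took no part in its own choice. It then remained above the comparison by 7.41-fold (Des) to 27.0-fold (Cnn1) in lung A and by 9.82-fold (Tagln) to 56.4-fold (Cnn1) in lung B. Each gene was thus far higher in spots that the other 5 had chosen. Of the heart genes of the rule, Tnnt2 (cardiac troponin T) stood at 176 against 45.8 in lung A and 230 against 73.7 in lung B, and Myh6 (cardiac myosin heavy chain) at 57.0 against 95.5 and at 153 against 65.1. Myl7 (the atrial regulatory light chain) stood at 16.6 against 43.2 and at 57.1 against 28.3, and Nppa (atrial natriuretic peptide) at 0 against 0.226 and at 19.5 against 12.7.

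**Figure D1:**
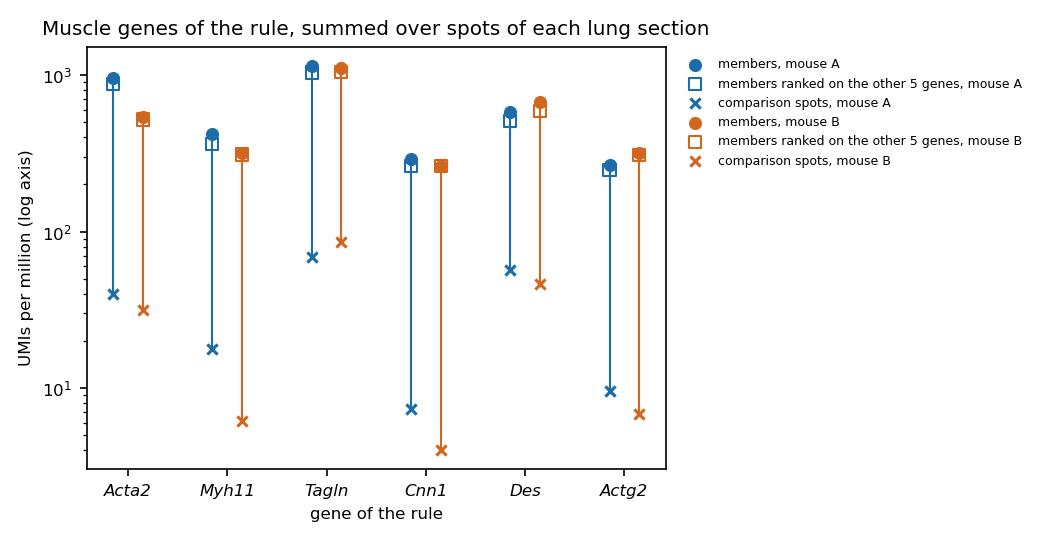
CPM (log axis) of the 6 ranking genes, summed over the spots of each lung section, for members (filled circles), for members ranked on the other 5 genes (open squares) and for comparison spots (crosses). In both mice each open square lies close to its filled circle and far above its cross, as for Acta2 at 883 in mouse A when ranked on the other 5 genes.

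The spots were not only muscle. Checked against marker lists, the members held more airway epithelial RNA than comparison spots and less RNA of the genes shared by all endothelium. The name smooth muscle-rich spots is used, and the share of vessel wall in them was not tested. The summed airway list (19 genes on the panel) reached 11814 CPM in the members of lung A against 2202 in comparison spots, and 24714 against 878 in lung B. Of the members, 19 of 61 (31.1%) in lung A and 61 of 102 (59.8%) in lung B were also in the top 5% of their section by airway share, against 0.811% and 1.48% of comparison spots. The list of genes shared by all endothelium summed to 1804 against 3454 in lung A and to 1373 against 1593 in lung B, lower in both lungs. The arterial list was lower in lung A, at 826 against 1072, and higher in lung B, at 623 against 419, and the venous list stood at 2179 against 2470 and at 1665 against 1612. In the members of lung B poorest in airway RNA all 3 lists were above the comparison spots, at 2083, 946 and 2331, while in those of lung A the first 2 were below, at 2171 and 966, and the venous list was above, at 2931. Fibroblast and collagen genes summed to 11731 against 4960 in lung A and 13132 against 7993 in lung B. Every count belongs to such mixed tissue, in which more or fewer cells of a type and more or less RNA per cell cannot be told apart. The part of the airway in the other results was not tested beyond the values given beside them with the airway top 5% left out, where airway genes were still higher in the members.

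**Figure D2:**
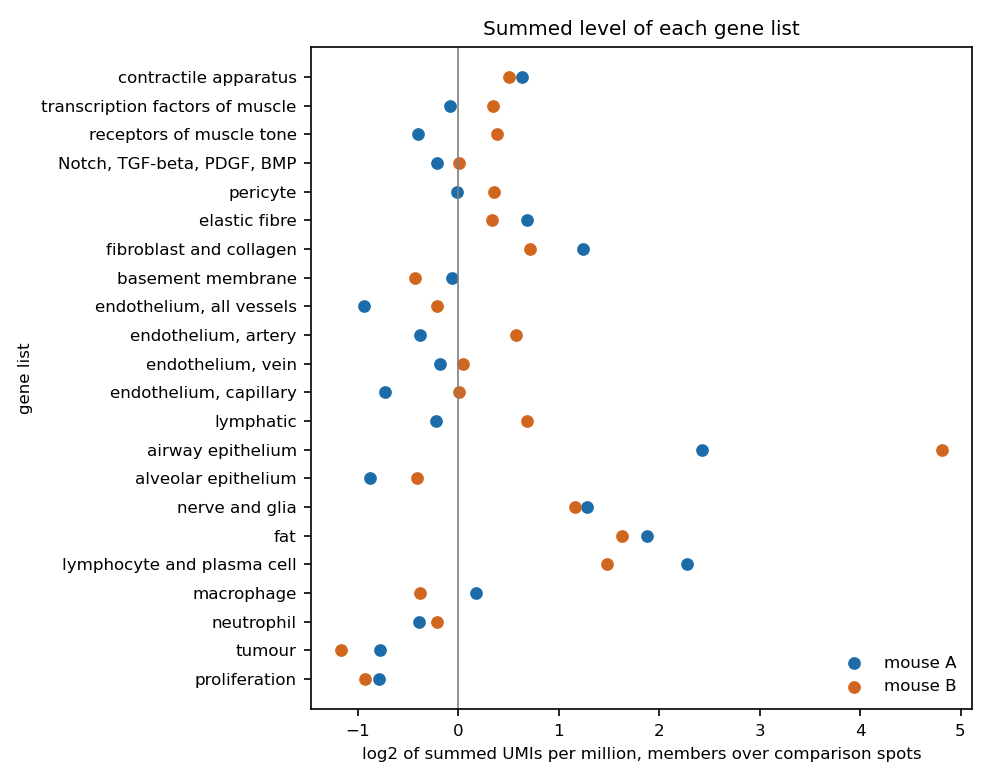
Log2 ratio of the summed CPM of 22 gene lists, without the ranking genes, in members over comparison spots, with 1 point per mouse. Among the lists plotted, airway lies farthest to the right in both mice and the endothelial list of all vessels lies left of 0 in both.

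Summed per section and class and tested with edgeR with the mouse as a block, 1146 of 12997 genes were higher in the members (8.82%) and 282 were lower (2.17%), at an adjusted p under 0.05. The 10 genes of the rule were left out of the genes tested. The median log2 fold change over all genes was -0.13. Leaving out every spot in the top 5% by airway share gave 457 higher and 124 lower. DESeq2 called 784 higher and 52 lower, and 783 genes were lower without the spots above the median of tumour share. Without the mouse as a block the counts were 198 and 0, but that fit counts the difference between the lungs as error, so calls lost under it say nothing of stability. Of the gene lists described here, only the airway (11 genes), contractile (5), fibroblast and collagen (4), receptor (1), skeletal muscle (1) and fat (1) lists kept any call without the block.

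Many genes of the contractile apparatus outside the rule were higher. Of 50 tested, 18 were higher and 0 lower, against the 8.82% of all genes that were higher, and the median log2 fold change was 0.50. Because spots were selected on 6 genes of the same cells, this describes the spots and is not independent of the ranking. Synpo2 (synaptopodin 2, an actin-binding protein of dense bodies) stood at 166 CPM against 7.47 in lung A and 127 against 4.29 in lung B, a log2 fold change of 4.55 ± 0.29 (SE, adjusted p = 1.28e-09). Tpm2 (beta tropomyosin) stood at 809 against 49.0 and at 807 against 53.9, a log2 fold change of 3.83 ± 0.21 (adjusted p = 1.72e-10). Myl9, the regulatory light chain itself, stood at 399 against 27.8 and 271 against 18.7 (log2 fold change 3.71 ± 0.22, adjusted p = 3.18e-10). All 3 genes were higher in both lungs.

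The kinase of that light chain, Mylk, was higher by 1.97 ± 0.20 on the log2 scale (adjusted p = 8.20e-07), with 356 against 76.5 in lung A and 270 against 67.6 in lung B. Lmod1 (leiomodin, which nucleates actin filaments) was higher by 3.70 ± 0.34, with 102 against 8.26 and 72.7 against 4.45. The subunits of the large-conductance calcium-activated potassium channel, which limits contraction, rose together. Kcnmb1, its smooth muscle beta subunit, stood at 45.1 against 3.51 in lung A and 46.7 against 2.02 in lung B (log2 fold change 4.00 ± 0.48, adjusted p = 4.95e-06). Kcnma1, its pore, was sparse, with 4 and 8 UMIs in the members (log2 fold change 3.87 ± 0.73, adjusted p = 7.97e-04). Mrvi1, a target of cGMP-dependent kinase that restrains calcium release, and Jph2, a protein of membrane junctions, were higher by 2.58 ± 0.34 and 2.53 ± 0.38.

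Other contractile genes moved less. Csrp1, a LIM protein of the actin cytoskeleton, was higher by 1.21 ± 0.20, with 757 against 277 in lung A and 696 against 291 in lung B. Ppp1r12b, a targeting subunit of myosin phosphatase, was higher by 1.00 ± 0.27 with unequal sections, 169 against 48.5 in lung A and 117 against 80.1 in lung B. Vcl (vinculin, log2 fold change -0.26 ± 0.20, adjusted p = 0.485) and Flna (filamin A, 0.41 ± 0.20, adjusted p = 0.223), both used in many cell types, were not called. Smtn (smoothelin) and Cald1 (caldesmon) were not called, and their folds had opposite signs in the mice, 1.44 and -0.02 for Smtn and 0.87 and -0.19 for Cald1.

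Contractile genes were also called with fewer airway-rich spots. With the airway top 5% left out, 16 of 49 tested contractile genes were higher, where 457 of all 12671 genes were, and with only the airway-poor members, an alternative added after the airway genes were seen, 12 of 49 were, where 129 of all 12301 genes were. Neither setting removed the airway, since all 17 airway genes tested were still higher in the first and 8 of 16 in the second. With spots in the top 20% by heart share left out, 15 of 49 were higher, where 725 of all 12542 genes were. Without the mouse as a block the count was 5 of 50, made up of Kcnmb1, Lmod1, Myl9, Synpo2 and Tpm2, and with every spot thinned to 2000 UMIs it was 11 of 49, where 590 of all 11118 genes were higher, with Cav1 (caveolin 1) lower.

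**Figure D3:**
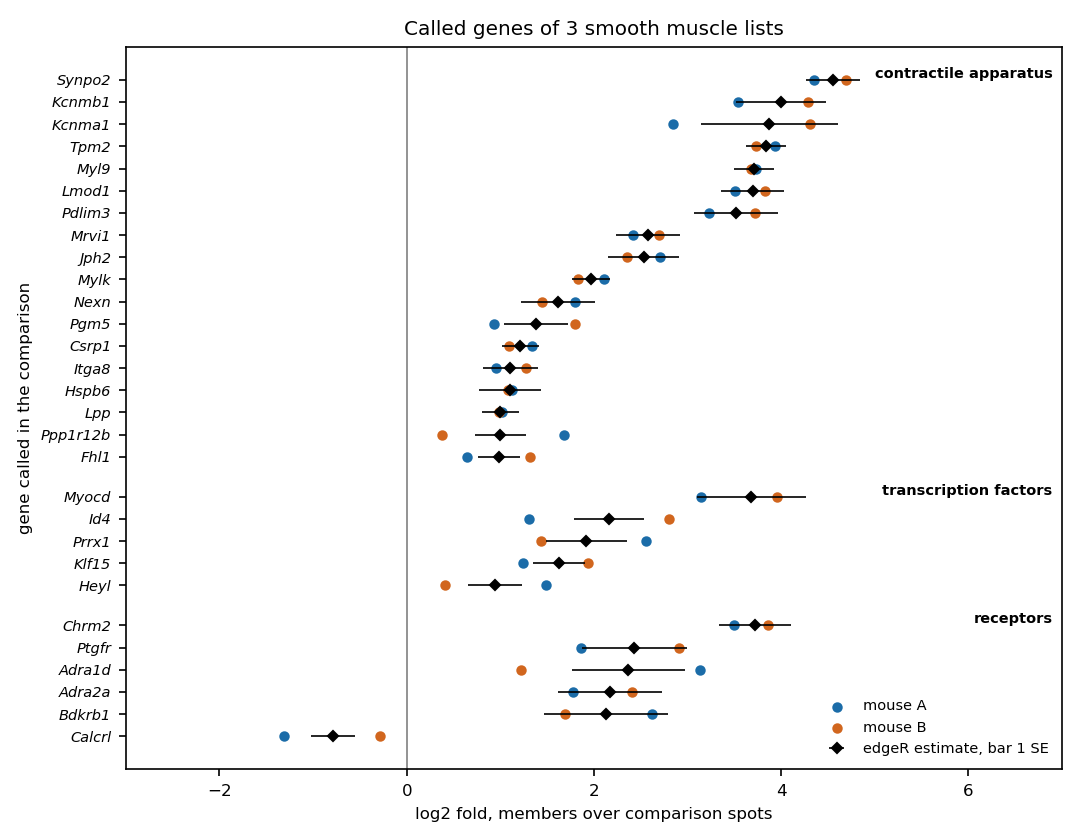
Log2 fold change of members over comparison spots for called genes of the contractile, transcription factor and receptor lists. Diamonds are edgeR estimates with bars of 1 SE and circles are the single mice. Apart from Calcrl all lie right of 0 in both mice, with Synpo2 at 4.55 and Adra1d, Id4, Kcnma1 and Ppp1r12b the genes whose mice lie farthest apart.

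Of 30 transcription factors and cofactors known in smooth muscle, 5 were higher (16.7%, against 8.82% of all genes) and 0 lower, with a median log2 fold change of -0.06. Myocd (myocardin) stood at 21.4 CPM against 2.15 in lung A and 23.4 against 1.23 in lung B, a log2 fold change of 3.68 ± 0.58 (adjusted p = 1.23e-04). Its partner Srf was not called, with 30.9 against 51.7 and 58.4 against 65.6 (-0.53 ± 0.29, adjusted p = 0.290). The cofactor that myocardin resembles and that many cells use, Mrtfa, was not called either (-0.18 ± 0.22, adjusted p = 0.685). Myocardin was thus the only one of this trio to pass the test.

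The other 4 factors were Heyl, Klf15, Prrx1 and Id4. Heyl, a target of Notch signalling in vascular smooth muscle, stood at 128 against 42.2 in lung A and at 62.3 against 41.8 in lung B, a log2 fold change of 0.95 ± 0.29 (adjusted p = 0.036). Klf15, a zinc finger factor, stood at 80.7 against 31.7 and at 106 against 24.7 (1.63 ± 0.28). Prrx1, a homeobox factor of mesenchyme, was higher by 1.92 ± 0.43, and Id4, an inhibitor of basic helix-loop-helix factors, by 2.17 ± 0.37. In the airway-poor members Heyl, Klf15 and Prrx1 were called and Myocd was not, and without the mouse as a block none of the 5 were. Heyl was not called with DESeq2, after thinning or for the top 2.5% of spots, and Myocd was not called after thinning. Notch3, the Notch receptor of mural cells, stood at 61.7 against 31.7 and 33.7 against 19.7 and was not called (0.73 ± 0.32, adjusted p = 0.172). It was called higher with the airway top 5% left out and with the top 20% by heart share left out.

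Among 37 receptors for agents that set muscle tone, 5 were higher (13.5%) and 1 lower (2.7%), not far from the 8.82% and 2.17% of all genes. Chrm2, the muscarinic acetylcholine receptor M2 of airway smooth muscle and heart, stood at 68.8 CPM against 5.55 in lung A and 67.5 against 4.05 in lung B (log2 fold change 3.72 ± 0.38, adjusted p = 8.20e-07). Chrm3, the muscarinic receptor that drives bronchoconstriction, had only 4 and 3 UMIs in the members and was not called (1.59 ± 0.75, adjusted p = 0.204). The prostaglandin F receptor Ptgfr was higher by 2.43 ± 0.56, on 10 and 13 UMIs. The adrenergic receptors Adra1d and Adra2a were higher by 2.37 ± 0.60 and 2.17 ± 0.55, and the bradykinin receptor Bdkrb1 by 2.13 ± 0.66. Calcrl, which is the receptor for adrenomedullin and is abundant in endothelium, was lower, at 316 against 727 in lung A and 225 against 243 in lung B (-0.79 ± 0.23, adjusted p = 0.030). The Calcrl call was lost with DESeq2, for the top 10% of spots, and with airway spots or the top 20% by heart share left out.

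Chrm2 was the only receptor called without the mouse as a block, and the only one of the higher 5 called after thinning. In the airway-poor members none of 33 receptors was called, where 129 of all 12301 genes were higher and 60 lower. Chrm2 stood at 87.5 in the airway-rich and 15.8 in the airway-poor members of lung A, and at 89.0 and 28.7 in lung B. That difference between them did not pass the test (log2 fold change 1.86 ± 0.51, adjusted p = 0.066).

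Of 34 genes of the Notch, TGF-beta, BMP and PDGF pathways, 5 were higher (14.7%, against 8.82% of all genes) and 2 lower (5.88%, against 2.17%). The Notch ligand Jag1 stood at 64.1 against 28.1 in lung A and 81.8 against 26.6 in lung B (1.29 ± 0.29, adjusted p = 3.91e-03). The ligand Bmp3 was higher by 1.88 ± 0.35, and the receptor Bmpr1b by 3.44 ± 0.67 on 4 and 11 UMIs. Tgfb3 was higher and Tgfb1 lower, by 1.29 ± 0.36 and -0.71 ± 0.22. Pdgfb, the ligand by which endothelium recruits mural cells, was lower at 68.8 against 142 and 71.4 against 165 (-1.28 ± 0.23, adjusted p = 6.09e-04). Its receptor Pdgfrb was not called (0.24 ± 0.26, adjusted p = 0.647). With only the airway-poor members 1 of 32 genes of this list was higher, Bmp3, where 129 of all 12301 genes were. After thinning it was 1 of 29, Tgfb3, where 590 of all 11118 genes were. Jag1 and Bmpr1b were not called with airway spots left out, and Tgfb3 and Tgfb1 were not called with DESeq2. Without the spots above the median of tumour share 7 of 33 were lower, where 783 of all 12371 genes were.

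Elastic fibre and fibrillar collagen genes were higher in part. Of 22 elastic fibre genes 7 were higher (31.8%, against 8.82% of all genes) and 1 lower (4.55%, against 2.17%). After thinning 2 of 21 were higher, Eln and Ltbp4, where 590 of all 11118 genes were. Eln (elastin) stood at 838 CPM against 159 in lung A and at 418 against 188 in lung B, a log2 fold change of 1.63 ± 0.25 (adjusted p = 8.55e-05) that was larger in lung A. Fbln1 and Fbln5, fibulins that bind elastin, were higher by 2.43 ± 0.47 and 1.27 ± 0.27, Mfap5, a microfibril protein, by 1.87 ± 0.52, and Ltbp4, which guides elastin onto microfibrils, by 1.02 ± 0.20. Loxl4, a lysyl oxidase, was called lower (-1.44 ± 0.45, adjusted p = 0.041), with folds of 0.28 in lung A and -1.74 in lung B, so the call rested on mouse B.

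Fibroblast and fibrillar matrix genes gave the largest number of calls of any list, with 27 of 46 higher (58.7%, against 8.82% of all genes), 1 lower (2.17%, the share of all genes) and a median log2 fold change of 1.14, where that of all genes was -0.13. Dcn (decorin, a collagen-binding proteoglycan) stood at 178 against 16.6 in lung A and 132 against 20.003 in lung B (2.91 ± 0.27, adjusted p = 1.58e-07). Scara5, a ferritin receptor of adventitial fibroblasts, stood at 64.1 against 2.60 and 45.4 against 3.81 (3.89 ± 0.46, adjusted p = 3.93e-06). The collagens Col1a1 and Col3a1 were higher by 1.47 ± 0.29 and 1.54 ± 0.22. Smoc2, a matricellular protein, was higher by 2.73 ± 0.47 and Cilp, a protein of cartilage and fibrous matrix, by 3.24 ± 0.70 on 9 and 4 UMIs. With the airway top 5% left out 28 of 46 were higher, where 457 of all 12671 genes were. In the airway-poor members 21 of 45 were, where 129 of all 12301 genes were. Fn1 (fibronectin) was the member called lower (-0.78 ± 0.21).

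Of 21 basement membrane genes 2 were higher (9.52%, close to the 8.82% of all genes) and 3 lower (14.3%, against 2.17%). None was called lower with DESeq2, where 52 of all 12997 genes were, or with airway spots left out, where 124 of all 12671 genes were. Lama4, a laminin chain of muscle and vessels, was higher by 1.12 ± 0.29 and Smoc1 by 4.26 ± 0.59. Col4a2, a collagen IV chain, was lower, with a log2 fold change of -0.76 ± 0.21, at 195 against 384 in lung A and 398 against 498 in lung B.

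Vessel markers did not follow the muscle as a group. Of 16 genes of all endothelium, 0 were higher and 4 lower (25%, against 2.17% of all genes). Cldn5 and Cdh5, proteins of endothelial junctions, stood at 209 against 540 and 242 against 521 in lung A and at 212 against 245 and 191 against 257 in lung B. Their log2 fold changes were -0.91 ± 0.24 (adjusted p = 0.014) and -0.90 ± 0.21 (adjusted p = 6.57e-03). Robo4 and Clec14a, both endothelial surface receptors, were lower, with log2 fold changes of -1.54 ± 0.40 and -0.79 ± 0.22. Pecam1 was not called (-0.56 ± 0.22, adjusted p = 0.114). With airway spots left out 0 of the 16 were called in either direction, where 457 of all 12671 genes were higher and 124 lower. After thinning 6 of 14 were lower, where 218 of all 11118 genes were. Without the spots above the median of tumour share 11 were lower, where 783 of all 12371 genes were, and 1, Mmrn2, was higher.

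Of 11 venous and large vessel genes Vwf (von Willebrand factor) and Nr2f2 (a factor of venous identity) were higher (18.2% of the list, against 8.82% of all genes), Vwf at 323 against 189 in lung A and 208 against 90.1 in lung B (0.85 ± 0.20, adjusted p = 6.45e-03) and Nr2f2 by 1.09 ± 0.35 (adjusted p = 0.049). Vwf was called with airway spots left out and with only the airway-poor members, and not with DESeq2, after thinning or for the top 2.5% of spots, and Nr2f2 in none of these 5. Of 11 arterial genes Fbln5 was higher and Efnb2, the ephrin of arteries, lower (-0.86 ± 0.25), each 9.09% of the list, against 8.82% and 2.17% of all genes, and the lower call was lost with airway spots left out and with DESeq2. Of 12 capillary genes 0 were higher and 3 lower (25%, against 2.17% of all genes), among them Gpihbp1, which anchors lipoprotein lipase in capillaries (-1.19 ± 0.23, adjusted p = 8.97e-04). Of 6 lymphatic genes Prox1 and Reln were higher (33.3%), each on 12 or fewer UMIs per section, and neither was called with airway spots left out.

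Of 12 pericyte markers 3 were higher (25%, against 8.82% of all genes) and 2 lower (16.7%, against 2.17%). Abcc9 and Kcnj8, the subunits of the ATP-sensitive potassium channel of mural cells, stood at 42.7 against 4.53 and 30.9 against 6.56 in lung A and at 36.3 against 6.39 and 64.9 against 13.7 in lung B (2.69 ± 0.45 and 2.09 ± 0.38). Cspg4 (NG2 proteoglycan) was higher by 1.69 ± 0.42. Cox4i2 and Higd1b, genes of lung pericytes, were lower, with log2 fold changes of -1.17 ± 0.33 and -1.14 ± 0.34. Neither of these was called lower with DESeq2, after thinning, for the top 10% of spots, or with airway spots or the top 20% by heart share left out, while Abcc9 was called higher in each of these.

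Nerve and fat genes were higher in part. All 8 Schwann cell and neuron genes tested were higher in both mice and 5 were called (62.5%, against 8.82% of all genes). The share of all genes higher in both mice is not given here, so the count of 8 is a description only. Their median log2 fold change was 2.67, where that of all genes was -0.13. Cdh19, a cadherin of Schwann cells, stood at 11.9 CPM against 0.679 in lung A and 10.4 against 0.198 in lung B, on 5 and 8 UMIs in the members (4.76 ± 0.74, adjusted p = 9.98e-05). S100b, a calcium-binding protein of glia, and Uchl1, a neuronal ubiquitin hydrolase, were higher by 2.82 ± 0.67 and 2.52 ± 0.66. With only the airway-poor members none of 7 genes of this list was called, where 129 of all 12301 genes were higher. Of 7 adipocyte genes 6 were higher (85.7%), led by Cfd (adipsin) at 133 against 3.28 and 85.7 against 10.2 (3.88 ± 0.41) and Fabp4 at 185 against 5.32 and 108 against 20.9 (3.43 ± 0.43). With DESeq2 3 of the 7 were called, with airway spots left out 2 of 5 and with only the airway-poor members 1 of 5. With no filter on low counts 3 of 9 were called, Cfd, Cidec and Fabp4. Adipoq and Plin1, on 5 and 3 and on 6 and 3 UMIs in the members, were then not called. A patch of 14 spots held most of the signal in lung A, where the members outside it had 30.9 CPM of Cfd and 58.7 of Fabp4.

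Of 14 lymphoid genes Jchain and Ighm, which encode the joining chain and the heavy chain of IgM, and Mzb1, a chaperone of antibody secretion, were higher (21.4%, against 8.82% of all genes). Ighm stood at 1789 CPM against 174 in lung A and at 157 against 41.2 in lung B (2.56 ± 0.28, adjusted p = 1.45e-06). Jchain stood at 311 against 11.1 and at 16.9 against 3.61 (3.71 ± 0.44). In each lung most of this came from a single patch. Without a patch of 14 spots the members of lung A had 291 CPM of Ighm and 46.4 of Jchain, and without a patch of 11 spots those of lung B had 46.0 and 6.97. No lymphoid gene was called with only the airway-poor members, where 129 of all 12301 genes were higher. Of 13 macrophage genes Cd163, a marker of resident perivascular macrophages, was higher (1.96 ± 0.40) and Cd68 lower (-0.78 ± 0.22). Each was 7.69% of the list, against 8.82% of all genes higher and 2.17% lower. Their median log2 fold change was -0.21, where that of all genes was -0.13, with 8 lower in both mice and 1 higher in both. Cd68 was not called with DESeq2 or with airway spots left out. Without the spots above the median of tumour share 5 of the list were higher and 4 lower, where 1365 and 783 of all 12371 genes were. Of 11 neutrophil genes none was called. Their median log2 fold change was -0.47, where that of all genes was -0.13, and 10 were lower in both mice. The shares of all genes with the same direction in both mice are not given here. The counts of macrophage and neutrophil genes by direction in both mice are thus a description only. S100a9 stood at 29072.5 against 38400.0 in lung A and 11290.1 against 13614 in lung B (-0.47 ± 0.23, adjusted p = 0.210). The count of neutrophil genes called lower moved with the settings. It was 9 of 11 after thinning, where 218 of all 11118 genes were lower, and 8 for the top 2.5% of spots, where 528 of 12800 were. Without the spots above the median of tumour share it was 6, where 783 of 12371 genes were lower. With no filter on low counts it was 5, where 480 of 18916 were, and with DESeq2 it was 0.

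Some alveolar, tumour and cell cycle genes were lower. Of 19 alveolar genes 11 were lower (57.9%, against 2.17% of all genes) and 0 higher, among them Sftpc (surfactant protein C, -0.84 ± 0.22) and Ager (a marker of alveolar type 1 cells, -1.07 ± 0.22). In the airway-poor members 0 of the 19 were called, where only 60 of all 12301 genes were lower. The 4 tumour genes include Csf3, the neutrophil growth factor that 4T1 cells secrete, which stood at 2.37 against 7.02 in lung A and 42.8 against 168 in lung B (-2.11 ± 0.35, adjusted p = 2.45e-04). Plau (urokinase) and Hmga2 (a chromatin protein) were lower, with log2 fold changes of -1.69 ± 0.26 and -1.47 ± 0.36. With the spots above the median of tumour share left out none of the 4 was called, which largely follows from removing spots by the same genes. Of 10 cell cycle genes 4 were lower (40%), with Mki67 at 40.3 against 122 and 175 against 330 (-1.29 ± 0.23, adjusted p = 4.67e-04).

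Of 18 genes known to rise in smooth muscle cells that leave the contractile state, 1 was higher (5.56%, against 8.82% of all genes) and 3 lower (16.7%, against 2.17%). Mmp2, a gelatinase of mesenchyme, was higher at 104 against 23.5 in lung A and 173 against 37.8 in lung B (2.03 ± 0.25, adjusted p = 5.86e-06). Cd44 and Lgals3, also abundant in macrophages and tumour cells, were lower, with log2 fold changes of -0.74 ± 0.20 and -0.67 ± 0.20. Neither was called with airway spots left out or for the top 10% of spots, and Lgals3 was not called with DESeq2. Spp1 (osteopontin) was called lower (-1.25 ± 0.34, adjusted p = 0.019) with a fold of 0.06 in lung A and -2.20 in lung B, and the call rested on mouse B. Spp1 was also called with airway spots left out, and not with DESeq2 or for the top 10% of spots. Without the spots above the median of tumour share 3 genes of this list were higher (Mmp2, Runx1 and Vcam1) and 4 lower, where 1365 and 783 of all 12371 genes were. None of 11 immediate early genes was called, with Junb at 498 against 542 and 362 against 468 (-0.38 ± 0.20, adjusted p = 0.256) and Dusp1 at -0.10 ± 0.20.

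Heart genes outside the rule remained in the members although the top 5% by heart share had been removed. Of 18 tested 3 were higher (16.7%, against 8.82% of all genes) and 1 lower (5.56%, against 2.17%). The higher genes were Hspb7 (a small heat shock protein of heart) at 80.7 against 14.7 and 121 against 22.7 (2.29 ± 0.28), Tcap (telethonin) by 2.17 ± 0.36 and Ryr2 (the calcium release channel of heart) by 1.88 ± 0.53, and the lower one was Ankrd1 (-1.02 ± 0.27). The summed rule heart genes stood at 249 against 185 in lung A and 459 against 180 in lung B. Tnnt3, a fast skeletal troponin T, was the member called of 4 skeletal muscle genes tested, at 87.8 against 10.8 and 83.1 against 7.70 (3.11 ± 0.32, adjusted p = 8.20e-07), and Tnnt1 was not (-0.20 ± 0.61). Of cartilage genes 0 of 4 were called, and of 5 mast cell and basophil genes Kit, which is also in the capillary list, was lower (-0.82 ± 0.22) and Mcpt8, a protease of basophils, was not called (-1.14 ± 0.38, adjusted p = 0.058). Of 5 mesothelial genes Muc16, on 1 and 6 UMIs, and Krt19, also used by other epithelia, were higher by 2.70 ± 0.82 and 0.95 ± 0.27. They made up 40% of the list, against 8.82% of all genes, while 2 others were lower in both mice and the median log2 fold change was -0.44. With no filter on low counts Krt19 was called and Muc16 was not. Neither was called with DESeq2 or with airway spots left out, and in the latter Msln (mesothelin) was lower.

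The 15 largest increases held 5 members of the airway list. These increases were ranked among called genes with at least 50 UMIs and the same direction in both mice. All 17 airway genes tested were higher, with a median log2 fold change of 4.14. Bpifa1, a secreted airway defence protein, stood at 541 CPM against 13.2 in lung A and 3330.3 against 31.3 in lung B (5.97 ± 0.31, adjusted p = 7.68e-11). Reg3g, an antimicrobial lectin, Muc5b, the gel-forming mucin of small airways, and Bpifb1 were higher by 5.86 ± 0.40, 5.56 ± 0.27 and 5.21 ± 0.27. Krt15, a basal cell keratin, had 1 UMI in the members of lung A and 53 in those of lung B. Tff2, A2ml1, Sult1d1, Agr2, Aqp4, Tmc5, B3galt2, Calml3 and Vtcn1 followed with values from 5.02 to 5.95. Among the genes ranked, Sbspon, which encodes a small protein with a somatomedin B and a thrombospondin domain, had the largest value (6.62 ± 0.63, adjusted p = 2.80e-07). It stood at 47.5 against 0.566 in lung A and 29.9 against 0.198 in lung B. Sbspon, like other genes this rare in comparison spots, passed the filter on low counts only through its level in the members. In the airway-poor members 8 of 16 airway genes were still higher, where 129 of all 12301 genes were.

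The 10 largest decreases held 3 matrix metalloproteinases and 2 cytokines. Mmp13 (collagenase 3) stood at 0 against 7.36 in lung A and 15.6 against 77.1 in lung B (-2.59 ± 0.48, adjusted p = 6.51e-04). Mmp12 (macrophage elastase) stood at 4.75 against 19.0 and 11.7 against 50.4 (-2.23 ± 0.46). Mmp10 (stromelysin 2) was lower, with a log2 fold change of -2.30 ± 0.70, on 0 and 5 UMIs in the members. At 1.92 CPM of Mmp10 in its comparison spots, lung A could hardly show a decrease. The cytokines Il24 and Tnf were lower, with log2 fold changes of -3.24 ± 0.90 and -2.38 ± 0.75 on at most 2 UMIs in the members of a section. Elfn1, Chtf18, Rnf157, Rbp2 and Pla1a made up the rest, with values from -2.70 to -2.26 on at most 10 UMIs in the members of a section.

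How the members varied among themselves was examined by dividing those of each section by airway share, into 20 airway-rich and 21 airway-poor spots in lung A and 34 of each in lung B. The airway list summed to 24958 CPM in the airway-rich members and 1363 in the airway-poor members of lung A, and to 50185 and 6506 in lung B, as the division fixes. The 6 muscle genes summed to 3972 and 3264 in lung A and to 5036 and 2154 in lung B, more in the airway-rich members of both. In edgeR 167 of 4857 genes were higher (3.44%) and 107 lower (2.2%) in the airway-rich members, with the airway list left out of the genes tested. DESeq2 called 19 higher and 46 lower. The genes higher in these spots included Lypd2, Tspan1 and the cilium genes Cfap44, Pifo, Dnali1 and Ak7, which are used by airway epithelium and so lie close to what divided the spots.

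Some genes of large vessels and elastic fibres were lower in the airway-rich members. These were 3 of 13 elastic fibre genes (23.1%), 2 of 8 arterial genes (25%) and 2 of 4 venous genes (50%), against 2.2% of all genes. Fbln5 is in both the elastic fibre and the arterial list, and 0 genes of these lists were called higher. Vwf stood at 189 in the airway-rich members and 444 in the airway-poor members of lung A and at 61.9 and 353 in lung B (-1.87 ± 0.31, adjusted p = 0.022). Fbln5, made by arterial endothelium and muscle, stood at 53.9 and 166 in lung A and at 15.5 and 158 in lung B (-2.44 ± 0.46, adjusted p = 0.024). Sema3g, a semaphorin of arterial endothelium, stood at 60.6 and 143 in lung A and 38.7 and 162 in lung B (-1.72 ± 0.38), and Eln at 532 and 1307 in lung A and 298 and 511 in lung B (-1.09 ± 0.25, adjusted p = 0.038). In all 4 genes both mice were higher in the airway-poor members, which in lung B still held more airway RNA than comparison spots. Kit was lower in the airway-rich members as well (-1.74 ± 0.41). Of 10 genes of all endothelium Egfl7 was called lower (-1.11 ± 0.27), 10% of the list against 2.2% of all genes. In both mice 8 of these 10 were lower. The share of all genes lower in both mice is not given here, so that count is a description only.

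Most neutrophil genes were lower in the airway-rich members. Of 11 tested, 8 were called lower and 0 higher, against 2.2% of all genes lower. Retnlg, a resistin-like protein of neutrophils, stood at 828 and 2139 in lung A and at 584 and 1662 in lung B (-1.48 ± 0.23, adjusted p = 0.020). Ly6g, the defining surface marker of mouse neutrophils, stood at 135 and 428 in lung A and at 38.7 and 110 in lung B (-1.66 ± 0.30). The myeloid genes Fgr, Cd84 and Fcgr4 were lower, with log2 fold changes of -1.70 ± 0.24, -1.71 ± 0.30 and -1.81 ± 0.40. Ighm went the other way, at 2787 and 372 in lung A and 356 and 43.0 in lung B (2.87 ± 0.26, adjusted p = 1.50e-03), as did Jchain (2.04 ± 0.40). Most Ighm and Jchain counts of the members lay in a single patch per lung, as given above. The contrast was not tested without those patches.

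Of 40 contractile genes tested 1 (2.5%, against 3.44% of all genes) was higher between these members. This was Synpo2, higher in the airway-rich members, at 222 and 103 in lung A and 205 and 47.8 in lung B (1.57 ± 0.36, adjusted p = 0.038), and none was lower. Tpm2, Myl9 and Mylk differed by 0.79 ± 0.29, 0.78 ± 0.27 and 0.92 ± 0.27 and did not pass the test, and Lmod1 by -0.11 ± 0.38. Tnnt3 was higher in the airway-rich members (1.75 ± 0.39, adjusted p = 0.037), as was the cartilage matrix gene Chad (3.58 ± 0.58, adjusted p = 0.022).

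Members outside the airway top 5%, 42 in lung A and 41 in lung B, were compared with airway spots that were not members, 66 and 78. Of 7723 genes 53 were higher in the muscle spots (0.686%) and 347 lower (4.49%). DESeq2 called 3 higher and 19 lower. Lmod1 and Myl9 were the contractile genes called of 43 (4.65%, against 0.686% of all genes), at 104 against 56.8 and 388 against 188 in lung A and at 84.6 against 29.0 and 195 against 149 in lung B (1.22 ± 0.34 and 0.80 ± 0.24). Tpm2 and Synpo2 were not called (0.59 ± 0.25, adjusted p = 0.178, and 0.12 ± 0.29, adjusted p = 0.928). Heyl stood at 144 against 54.5 in lung A and 77.3 against 29.0 in lung B (1.46 ± 0.32, adjusted p = 4.09e-04).

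Some matrix genes were higher in the muscle spots than in airway spots. Of 36 fibroblast and collagen genes 8 were higher (22.2%, against 0.686% of all genes), among them Col5a1 at 111 against 38.6 and 140 against 58.0 (1.41 ± 0.30, adjusted p = 2.00e-04) and Col1a1 (1.18 ± 0.25). Of 16 elastic fibre genes Eln, Fbln2 and Fbln5 were higher (18.8%), Eln at 996 against 327 in lung A and 508 against 277 in lung B (1.31 ± 0.25, adjusted p = 2.28e-05). Vwf was higher by 1.09 ± 0.23, while Cldn5, Cdh5 and Pecam1 stood at 0.00 ± 0.22, 0.16 ± 0.23 and 0.28 ± 0.26. Of genes outside these lists, Sulf1, an extracellular sulfatase, Alpl, a phosphatase, Ampd2 and Mgll were higher by 1.38 to 1.75. Jchain was higher by 2.53 ± 0.39, on 63 UMIs in lung A and 4 in lung B. The lower genes were led by cilium and epithelial genes such as T2, Cfap157, Ak7 and Mok, close to the airway share by which the other spots were chosen. Of 7 heart genes 4 were also lower (57.1%, against 4.49% of all genes), Myl4, Myh7, Cox6a2 and Ankrd1, where the members but not the airway spots had been filtered on heart share.

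Against heart muscle spots, the top 5% by heart share (85 in lung A and 139 in lung B), 280 of 9749 genes were higher in the members (2.87%) and 100 lower (1.03%). Of these heart spots, 24 in lung A and 37 in lung B were also in the top 5% by share of the 6 muscle genes. DESeq2 called 33 higher and 37 lower. Lmod1 and Myl9 were again the contractile genes called higher, of 47 (4.26%, against 2.87% of all genes), at 102 against 48.3 and 399 against 224 in lung A and at 72.7 against 20.2 and 271 against 113 in lung B (1.40 ± 0.34 and 0.98 ± 0.26). Tpm1, the tropomyosin that heart and smooth muscle share, was lower (-1.25 ± 0.32). Chrm2, which the heart also uses, stood at 68.8 against 83.1 and 67.5 against 59.5 and was not called (-0.09 ± 0.30, adjusted p = 0.962).

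Heart genes outside the rule were lower in the members, 18 of 19 of them, which follows from the choice of the heart spots by heart share and is given as a description. Myl4, the atrial essential light chain, stood at 42.7 against 866 in lung A and 62.3 against 1475 in lung B. Sln (sarcolipin, an atrial inhibitor of the calcium pump) stood at 0 against 75.4 and 6.49 against 248, and Myoz2 (a Z-disc protein) at 0 against 157 and 7.79 against 224. Smpx, a small striated muscle protein, had 0 UMIs in the members of both mice and 26 and 98 in heart spots, at least 7.06-fold lower in lung A and 24.2-fold lower in lung B when the members are set to 3 UMIs per section. Slc17a7, Fgf12, Txlnb and Kcnj3 likewise had 0 UMIs in the members of both mice, and Trim54 had 1 and 0. The genes higher in the members included airway genes and Jchain (3.62 ± 0.43), with 15 of 16 airway genes called, and Retnla, a resistin-like protein of airway and macrophages, at 3168 against 617 and 14846 against 566 (3.49 ± 0.56).

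The members were not scattered over the sections. A neighbouring member touched 48 of 61 members (78.7%) in lung A and 88 of 102 (86.3%) in lung B. Of the spots that touch a member, counted once for each contact, 29.1% and 44.5% were members, against 3.59% and 3.67% of all spots. They formed 22 patches in lung A and 26 in lung B, of which 13 and 14 were single spots. The largest held 14 spots in lung A and 20 in lung B. In lung A 4 members (6.56%) lay at the edge of the tissue against 12.0% of comparison spots, and in lung B 45 (44.1%) against 9.04%. The part of the tissue edge in the results was not tested.

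**Figure D4:**
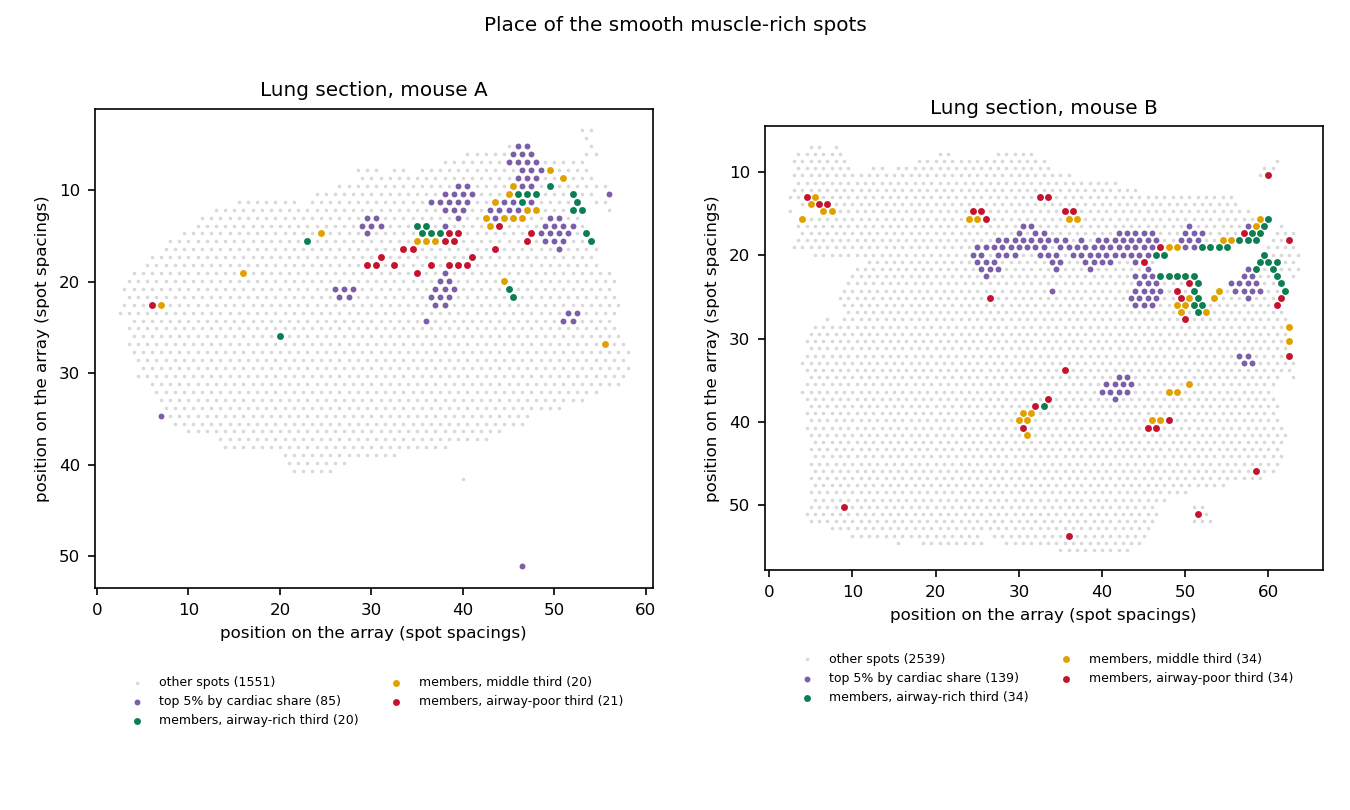
Position of every lung spot on the array of each mouse, in units of the spot spacing, with smooth muscle-rich spots coloured by airway share (rich, middle and poor) and heart muscle spots in purple. Members form short chains and small patches, with 48 of 61 (mouse A) and 88 of 102 (mouse B) touching another member.

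Patches of 5 or more spots, 2 in lung A with 28 of the members and 8 in lung B with 78, were compared side by side. In lung A the patches of 14 spots each had 4888 and 3915 CPM of the 6 muscle genes, 1256 and 8177 CPM of lymphoid genes and 9739 and 15097 of airway genes. In lung B the patch of 11 spots had the highest airway level, 52060 CPM, and the patch of 5 spots with 9217 had the lowest and the highest elastin, Eln at 803. Acta2 ranged from 398 to 778 over the 8 patches of lung B. Patches of one section thus differed widely in airway level while all held the genes that chose them.

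Levels changed with distance from the nearest member. At distances of 0, 1, 2, 3 and 4 spots the 6 muscle genes summed to 3660, 1624, 763, 480 and 319 CPM in lung A and to 3221, 799, 432, 339 and 248 in lung B, with the peak at 0 fixed by the choice of spots. The airway list ran from 11814 in the members over 7330 at 1 spot to 1831 at 5 or more spots in lung A, and from 24714 over 8955 to 508 in lung B. Elastic fibre genes stood at 2620 in the members and 1606 at 5 or more spots in lung A, and at 1939 and 1598 in lung B. Alveolar genes ran the other way, from 8605 in the members to 15771 at 5 or more spots in lung A and from 6549 to 8628 in lung B. The endothelial list of all vessels was lowest in the members of both mice, at 1804 and 1373. It went up to 3524 at 5 or more spots in lung A, and in lung B was between 1767 and 1829 at 1 to 4 spots and 1506 at 5 or more.

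**Figure D5:**
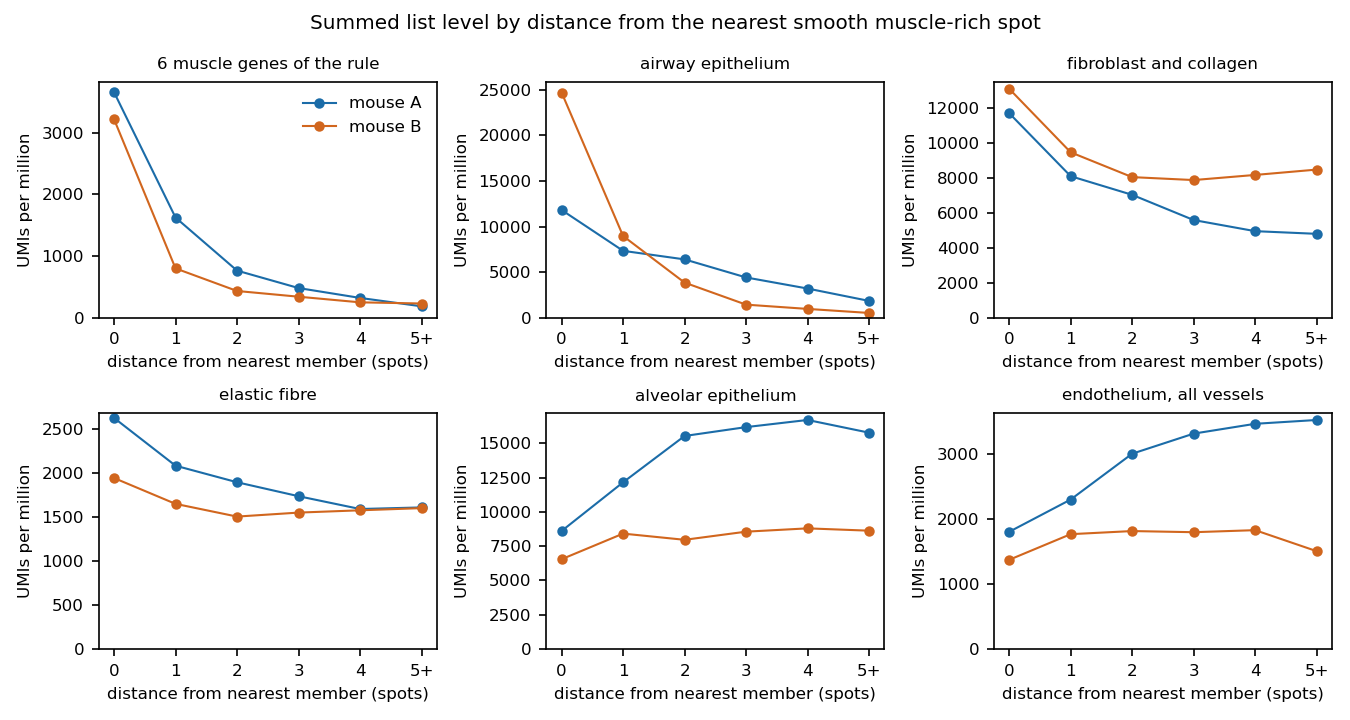
Summed CPM of 6 gene lists by distance in spots from the nearest smooth muscle-rich spot, with distance 0 for the members themselves and 1 line per mouse. The muscle genes peak at distance 0 because they chose those spots. The airway list is also highest there, and at 2 spots the airway list stands at 6391 in mouse A and 3840.0 in mouse B.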

How the data were processed

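Lung and primary tumour sections of 2 mice were profiled with Visium for FFPE tissue, and the 2 lung sections were used for all comparisons. The authors deposited UMI counts per gene and spot, made with Space Ranger 2.0.0 (version per the file headers) on mm10 according to the submitters' processing notes. The panel held 19465 probe targets with 19454 gene symbols. Spot barcodes are the same on every array, and 1458 lay over tissue in both lung sections. The lung sections held 11122812 and 30240176 counts, and their number limits the precision of low genes.

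Counts were summed per section and class of spots (4 sums per comparison) and tested with edgeR 4.0.16 (quasi-likelihood test, TMM, filterByExpr, Benjamini-Hochberg adjustment over all genes tested, two-sided, threshold 0.05) with the mouse as a block, which left 1 residual degree of freedom. The sums of a mouse come from 1 section and deviated together, with correlations of 0.426, 0.412, 0.570 and 0.409 in the 4 comparisons. Levels are CPM of a class sum, compared within a gene and not between genes. A gene rare in comparison spots could pass filterByExpr through the members alone. The members and the 31 gene lists were chosen with earlier results of these data known. Named genes were the 15 largest increases and 10 largest decreases called in the first comparison (8 and 8 in the others) with at least 50 UMIs and the same direction in both mice, and up to 4 called genes per list, or the 2 with the highest level where fewer than 2 were called. Some genes that the rule selects are not reported here. Genes named outside this rule were chosen after their values were seen. The code was tested on simulated data. Alternatives included DESeq2 1.42.0, other filters and thresholds, thinning to 2000 UMIs and leaving out airway, heart or tumour-rich spots.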

Additional observations from a re-analysis of the deposited data

How the results depend on the processing

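The limits of these results lie in 2 mice with 1 lung section each, in spots that mix cell types, and in low counts of many named genes. Without the replicate block (samples not paired by mouse) the genes called higher and lower against comparison spots were 198 and 0, against airway spots 0 and 0, against heart spots 0 and 0 and between airway-rich and airway-poor members 0 and 0, with 9.75%, 8.13%, 4.93% and 11.7% of genes at an unadjusted p under 0.05, and 5 contractile genes were called. That fit counts the difference between the lungs as error, so these losses say nothing of stability. With DESeq2 the lower genes were 52 against comparison spots, and higher and lower were 3 and 19, 33 and 37, and 19 and 46 in the other comparisons. With the airway top 5% left out they were 457 and 124 against comparison spots, with only the airway-poor members (added after seeing the data) 129 and 60. The higher genes were 725 with the heart top 20% left out and 590 after thinning, which called 11 contractile genes. The lower genes were 480 with no filter on low counts, 149 for the top 10% of spots, 528 for the top 2.5% and 783 without the spots above the median of tumour share. With no filter 376 and 280 genes differed between airway-rich and airway-poor members. The cause of these shifts was not tested, and some alternatives also keep fewer spots or genes. The share of members with a member neighbour was 88.5% and 95.7% in mouse A for the top 2.5% and 10%, and 77.7% in mouse B after thinning. Folds in single mice ran from -1.74 to 0.28 for Loxl4 and from -2.20 to 0.056 for Spp1. Of 2107 values of named genes under an alternative, 1612 kept direction and side of the threshold, 482 lost the call, 11 gained it and 2 reversed.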
